A study of Homo sapiens with 6 samples.

Results

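The anti-apoptotic BCL2 family is described here in 143B osteosarcoma cells treated with celastrol, by its 5 genes MCL1, BCL2L1, BCL2L2, BCL2A1 and BCL2. The members were taken by gene name from the deposited count table, and all 5 were found among its 22481 genes. All 5 also passed the filter on low counts that left 15387 genes for the test.

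143B is an established human osteosarcoma line, and celastrol is a plant triterpene that reacts with protein thiols. Per the labels' protocols, wells of 1 plate were cultured for 24 h. Of these wells, 3 then had celastrol added and 3 were left as controls, and both groups were collected after another 24 h. The labels used here state neither a dose nor a vehicle for the controls, and all wells share 1 cell line and 1 plate, so the p-values measure the spread between wells, which may be technical. The 6 poly(A) RNA libraries held 38.4 to 39.5 M counts. Along the first principal component, the wells closest to the opposite group were replicate 2 of celastrol and replicate 1 of control. Among 8 osteoblast lineage markers, SPARC, SPP1, RUNX2, COL1A1 and ALPL were read in every library, while SP7, COL1A2 and BGLAP had at most 6 counts in any library, so the lineage label rests on part of its marker list. Of the 5 read, RUNX2 fell to 53.7% and ALPL to 44.2% of the control level, COL1A1 rose to 158.1%, and SPARC and SPP1 did not pass the test. The part of these markers in the results on the members was not tested. The osteoblast list summed to 424 to 448 CPM with celastrol and 392 to 489 CPM in controls. A list of 6 epithelial markers summed to 1210 to 1291 CPM with celastrol and 1325 to 1340 CPM in controls. KRT18 was its largest part and did not pass the test, nor did EPCAM. KRT8 fell, from 362.4 CPM in controls to 306.5 CPM with celastrol, and CLDN4 fell from 1.08 to 0.361 CPM. CDH1 and KRT19 had at most 2 counts in any library.

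BCL2 family proteins set the threshold for the mitochondrial route to apoptosis. The anti-apoptotic members hold a groove that binds the BH3 helix of pro-apoptotic relatives, either the BH3-only messengers such as BIM and PUMA or the pore formers BAX and BAK themselves, and so keep the outer mitochondrial membrane closed. MCL1 protein and mRNA both turn over quickly, which makes the gene sensitive to changes in transcription and translation, whereas BCL2 and BCL-XL are long-lived proteins. Protein levels were not measured in these RNA libraries. Counts per gene do not separate the long forms of MCL1 and BCL2L1 from the short spliced forms that are known to favour death.

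MCL1, BCL2A1 and BCL2L1 fell with celastrol, BCL2L2 rose, and BCL2 did not pass the test. That is 3 members lower and 1 higher by edgeR's quasi-likelihood test at an adjusted p under 0.05 over all tested genes. Celastrol moved many genes in these cells: 48.4% of all tested genes were called, 24.8% lower and 23.6% higher, so being called is common for any gene and the sizes carry more than the count. The median log2 fold change was -0.45 over the 5 members and -0.00024 over all tested genes. The 2 groups of wells did not overlap for 4 of 5 members, against 56.9% of all tested genes. Leaving out celastrol replicate 2 and control replicate 1 together left 3 members lower and 1 higher. These wells were chosen after seeing the data as those closest to the opposite group. Their removal can widen the contrast, so it is no independent check. RNA per cell and the number of cells of a given state cannot be told apart in such bulk libraries.

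**Figure D1:**
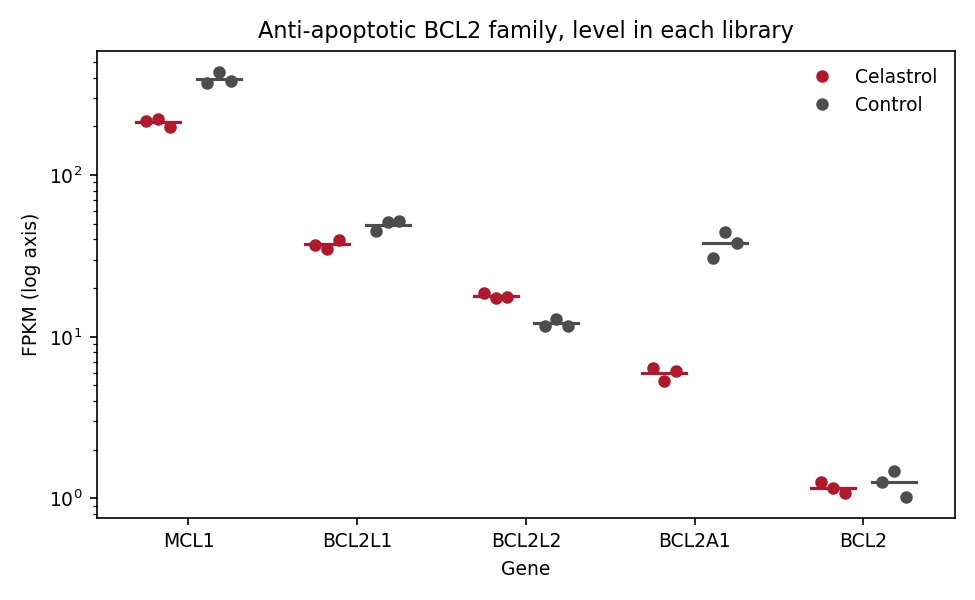
FPKM of each member in each library on a log axis, celastrol in red and control in grey, with points for the 3 wells and lines for their means. MCL1 lies highest in all 6 libraries, BCL2A1 lies above BCL2L2 in controls and below it with celastrol, and only BCL2 has overlapping groups.

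MCL1 encodes the most abundant member, a short-lived guardian of the outer mitochondrial membrane (NCBI gene 4170, chromosome 1, 150574558 to 150579610, GRCh38). Its level per length was 215, 224 and 198 FPKM in celastrol replicates 1, 2 and 3, against 369, 434 and 381 FPKM in control replicates 1, 2 and 3. Every celastrol well lay below every control well, and the gap between the groups was wider than the spread within either. In counts scaled by TMM it averaged 826.9 ± 46.7 CPM with celastrol and 1582 ± 137 CPM in controls (SD, n = 3 each), a log2 fold change of -0.94 ± 0.06 SE (edgeR adjusted p = 5.55e-09), which left 52.3% of the control level. The call rests on 30647 to 34374 counts per celastrol library and 56594 to 65900 per control library, so counting error is small beside the spread between wells. An exon of MCL1 shares 2 bases with its neighbour ADAMTSL4-AS1, which had 1 to 6 counts per celastrol library and 3 to 7 per control library.

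BCL2A1, also called BFL1 or A1, is a short-lived member best known from blood cells, where NF-kB induces it (NCBI gene 597, chromosome 15, 79960892 to 79971196). It had 6.43, 5.29 and 6.12 FPKM in celastrol replicates 1, 2 and 3, against 30.7, 44.7 and 38.2 FPKM in control replicates 1, 2 and 3. The celastrol wells lay close together and far below the controls, among which replicate 1 was lowest. The mean was 4.902 ± 0.485 CPM with celastrol and 32.11 ± 5.96 CPM in controls (SD, n = 3 each), and the log2 fold change of -2.71 ± 0.15 SE (edgeR adjusted p = 4.38e-10) left 15.3% of the control level. Only 50 of the 15387 tested genes had a lower log2 fold change. At 172 to 212 counts per celastrol library and 996 to 1434 per control library it had the fewest counts of the members with celastrol, though more than BCL2 in controls, and the 95% interval of the log2 fold change ran from -3.02 to -2.41. Because BCL2A1 is a blood cell gene, markers of those cells were read as well. PTPRC, the pan-leukocyte antigen, had at most 6 counts in any library and ITGAM at most 6. The 5 of 8 listed markers found in the table summed to 142 to 167 CPM in celastrol libraries and 194 to 207 CPM in controls. Without the broadly expressed lysosomal gene CD68 they summed to 1.54 to 2.08 CPM in celastrol libraries and 0.364 to 0.737 CPM in controls, lower than BCL2A1 alone in both groups, and SPI1 was the marker among them that rose.

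The window of RefSeq (GRCh38.p14) that runs 250 bases before to 50 after the BCL2A1 start holds letters of 3 of the 9 motifs searched. They are shown because BCL2A1 had the largest fall of the family, and capitals mark the match.
BCL2A1 TGATGNAA, the composite that ATF4 and C/EBP factors are known to read, chr15:79971241-79971270, minus strand: atattataaagTGATGCAAacagaaattcc
BCL2A1 CATGTG, an E-box that MITF is known to read, chr15:79971203-79971232, minus strand: ccatgtatcatCATGTGtcataactcagtc
The third match, TATAAA, lies 70 to 65 bases before the start and overlaps none of the other matches; it stands in lower case in the first stretch. Of 35116 such windows in the table, 3.62% hold TGATGNAA, 11.1% hold CATGTG and 11.5% hold TATAAA on either strand. ATF4 RNA rose with celastrol (log2 fold change 0.53, edgeR adjusted p = 4.05e-06) and MITF RNA fell (-0.81, edgeR adjusted p = 0.00202). Whether any of these motifs bears on the fall of BCL2A1 was not tested.

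BCL2L1 encodes BCL-XL, a long-lived guardian that also binds BAX and BAK (NCBI gene 598, chromosome 20, 31664452 to 31723963). It had 37.2, 34.8 and 39.8 FPKM in celastrol replicates 1, 2 and 3, against 44.9, 51.0 and 52.1 FPKM in control replicates 1, 2 and 3. The groups did not overlap, and celastrol replicate 3 and control replicate 1 were the wells nearest each other. The mean was 108.4 ± 7.64 CPM with celastrol and 147.7 ± 12.4 CPM in controls (SD, n = 3 each), with a log2 fold change of -0.45 ± 0.07 SE (edgeR adjusted p = 7.7e-05). In the GENCODE annotation 43% of the exon bases of BCL2L1 are shared with ABALON, an RNA on the opposite strand, and whether the authors counted by strand is not stated here. ABALON had 15 to 31 counts per celastrol library and 16 to 47 per control library, against 3994 or more counts for BCL2L1 in every library.

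The 224 bases upstream of the outermost annotated BCL2L1 start in RefSeq or GENCODE are shown to set this promoter beside that of BCL2A1, with TATAAA in capitals as the only motif of the 9 found there.
BCL2L1 upstream, chr20:31723990-31724213, minus strand: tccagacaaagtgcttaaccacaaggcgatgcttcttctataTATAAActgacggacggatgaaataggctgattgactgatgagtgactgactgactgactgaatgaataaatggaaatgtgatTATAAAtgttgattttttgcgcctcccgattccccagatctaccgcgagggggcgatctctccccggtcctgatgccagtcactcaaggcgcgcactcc
The other motifs searched on both strands were a stricter and a looser form of the NF-kB site, of which the looser includes every match of the stricter, TGANTCA for AP-1, CACGTG for MYC and related factors, TGACGTCA for CREB and ATF factors, and GGGCGG for SP1. Neither NF-kB form was present in any of the 4 windows held for BCL2A1, BCL2L1 and BCL2, and 1.91% and 6.52% of all windows hold the stricter and the looser form. A second BCL2L1 window, at a start further downstream, holds GGGCGG, as do 45% of all windows.

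BCL2L2 encodes BCL-W, a guardian known for its role in sperm production and in neurons (NCBI gene 599, chromosome 14, 23306833 to 23311751). It had 18.5, 17.4 and 17.6 FPKM in celastrol replicates 1, 2 and 3, against 11.7, 12.9 and 11.7 FPKM in control replicates 1, 2 and 3. Every celastrol well lay above every control well. The mean was 62.95 ± 2.02 CPM with celastrol and 44.0 ± 2.50 CPM in controls (SD, n = 3 each), and the log2 fold change was 0.52 ± 0.08 SE (edgeR adjusted p = 2.68e-05), or 143.1% of the control level. BCL2L2 shares 19.4% of its exon bases with the readthrough BCL2L2-PABPN1 and 4.92% with PPP1R3E on the opposite strand. The readthrough had 0 to 11 counts per celastrol library and 0 to 10 per control library, and PPP1R3E had 527 to 724 and 344 to 539. How reads in shared exons were assigned is not stated here, so the BCL2L2 value carries an uncertainty that the counts cannot size.

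BCL2, the founding member and a guardian at both mitochondria and endoplasmic reticulum, was the least abundant per length (NCBI gene 596, chromosome 18, 63123346 to 63320090). It had 1.26, 1.16 and 1.07 FPKM in celastrol replicates 1, 2 and 3, against 1.27, 1.48 and 1.03 FPKM in control replicates 1, 2 and 3. The groups overlapped, with control replicate 2 highest and control replicate 3 lowest of all 6. The mean was 11.88 ± 0.884 CPM with celastrol and 13.22 ± 2.30 CPM in controls (SD, n = 3 each), and the log2 fold change of -0.15 ± 0.14 SE did not pass the test (edgeR adjusted p = 0.387). Its 95% interval ran from -0.45 to 0.14, which spans the fitted fall of BCL2L1 but neither that of MCL1 nor the rise of BCL2L2. Each library held 419 to 588 BCL2 counts. The value depends on single wells: without control replicate 2 it was -0.03, and without control replicate 3 it was -0.28, and neither passed.

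Abundance did not order the changes. Abundance here is the mean over all 6 libraries, so a fall with celastrol also lowers it. BCL2A1 averaged 32.11 CPM in controls and 4.902 CPM with celastrol, so its abundance rank is not independent of its change. By mean log2 CPM, MCL1 stood at the 99.5th percentile of tested genes, BCL2L1 at the 90.1st, BCL2L2 at the 72.6th, BCL2A1 at the 46.5th and BCL2 at the 39.2nd. Down that order the log2 fold changes were -0.94, -0.45, 0.52, -2.71 and -0.15, so the steepest fall and the smallest change belonged to the 2 least abundant members by counts. MCL1 and BCL2L1 lie in the top decile of abundance, where 60.4% of genes were called and 30.2% were called lower, with a median absolute log2 fold change of 0.198. Of the 75 genes at least as abundant as MCL1, MCL1 included, none of the others had a log2 fold change as low as its -0.94. BCL2A1 lies in the fifth decile from the bottom, where the median absolute log2 fold change was 0.335, and of the 8228 genes at least as abundant as BCL2A1 only 5, itself included, had a log2 fold change at or below -2.71. BCL2 lies in the decile below it, where 51.3% of genes were called, and BCL2L2 in the eighth, where 59.1% were called.

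**Figure D2:**
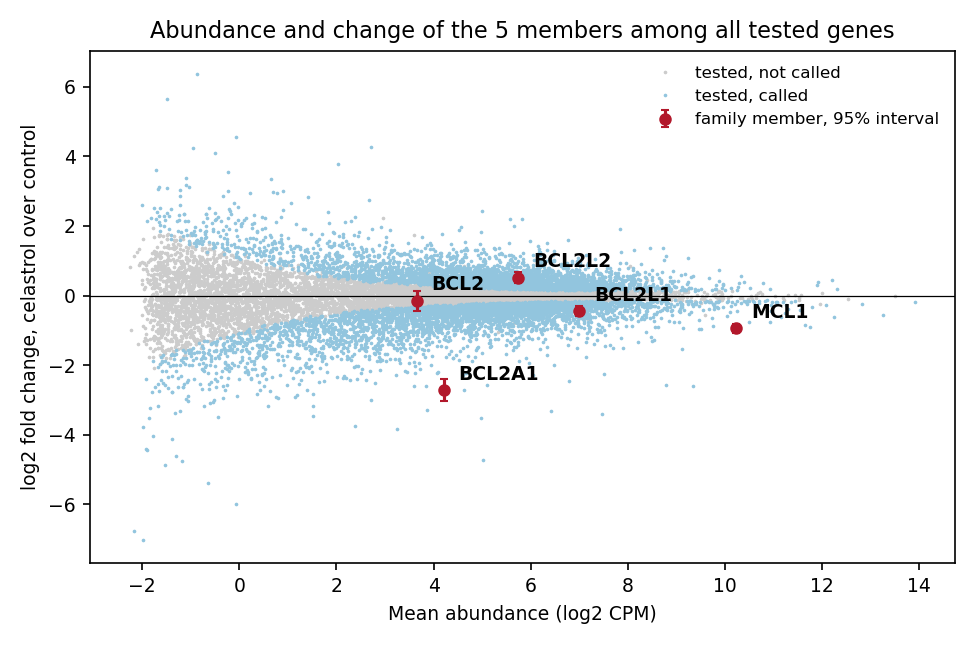
Mean abundance in log2 CPM (x) against log2 fold change, celastrol over control (y), for all 15387 tested genes, with called genes in blue, other genes in grey and the 5 members in red with 95% intervals. MCL1 sits far right at -0.94, BCL2A1 sits near mid-abundance at -2.71, BCL2L2 is the only member above 0 and the interval of BCL2 crosses 0.

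Summed per length, the family fell to 278, 282 and 263 FPKM in celastrol replicates 1, 2 and 3, against 457, 545 and 484 FPKM in control replicates 1, 2 and 3. The means were 274.5 ± 10.2 FPKM with celastrol and 495.3 ± 44.7 FPKM in controls (SD, n = 3 each), a difference of -220.7 FPKM (two-sided exact permutation p = 0.1, the smallest that 3 against 3 allows). The highest celastrol well was lower than the lowest control well. MCL1 made up 82.6% of that difference, BCL2A1 14.4% and BCL2L1 5.48%, BCL2 made up 0.0434%, and BCL2L2, which rose, entered as -2.59%. These parts are per length, and BCL2A1 has the shortest length of the members, at 836 bases. In mean CPM, BCL2L1 went from 147.7 in controls to 108.4 with celastrol, and BCL2A1 from 32.11 to 4.902. Without MCL1 the sum of the other 4 members differed by -38.4 FPKM (two-sided exact permutation p = 0.1).

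**Figure D3:**
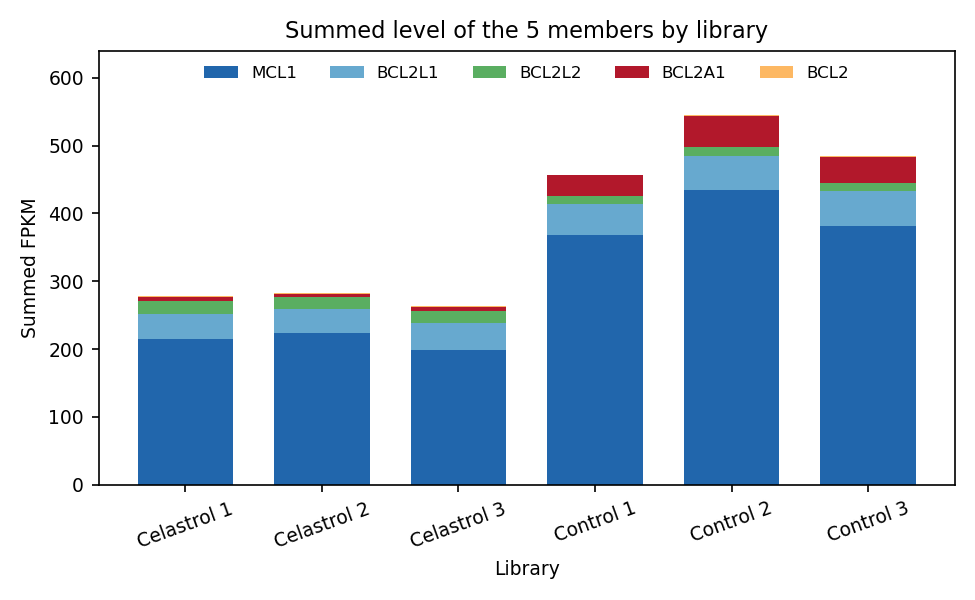
Stacked FPKM of the 5 members in each library, celastrol libraries on the left and control libraries on the right. The celastrol bars end between 263 and 282 FPKM and the control bars between 457 and 545 FPKM, with MCL1 as the largest block in each.

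The order of the members per length changed between the groups at 1 place. In all 3 celastrol libraries the order was MCL1, BCL2L1, BCL2L2, BCL2A1 and BCL2, and in all 3 control libraries it was MCL1, BCL2L1, BCL2A1, BCL2L2 and BCL2. BCL2A1 was 0.305 to 0.347 times BCL2L2 with celastrol and 2.62 to 3.45 times BCL2L2 in controls. The closest neighbours were BCL2L1 and BCL2A1 in controls, where BCL2L1 was 1.14 to 1.47 times BCL2A1 within a library and the lowest BCL2L1 well had 44.9 FPKM beside 44.7 FPKM for BCL2A1 in its highest. With celastrol BCL2L1 was 5.78 to 6.58 times BCL2A1. MCL1 remained highest, at 4.99 to 6.42 times BCL2L1 with celastrol and 7.31 to 8.51 times BCL2L1 in controls. It made up 77.3% ± 1.9 of the sum with celastrol and 79.7% ± 0.963 in controls (SD, n = 3 each, two-sided exact permutation p = 0.2) and the groups overlapped. Taken as a share of counts, not per length, the difference was -5.53 percentage points in place of -2.41 (two-sided exact permutation p = 0.1, the smallest possible). BCL2A1 made up 1.87 to 2.33% of the sum in celastrol libraries and 6.71 to 8.20% in control libraries. The place of BCL2A1 above BCL2L2 in controls depends on length, which is 836 bases for BCL2A1 and 3579 for BCL2L2. By counts BCL2L2 was above BCL2A1 in all 6 libraries. Control replicates 1, 2 and 3 held 1627, 1780 and 1650 BCL2L2 counts against 996, 1434 and 1259 for BCL2A1.

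A ratio between members of the same library is free of the scaling between libraries. Relative to BCL2L1, the log2 ratio of BCL2A1 was -2.65 ± 0.10 with celastrol and -0.40 ± 0.19 in controls, and that of MCL1 was 2.51 ± 0.18 with celastrol and 3.00 ± 0.11 in controls (SD, n = 3 each). The log2 ratio of BCL2L2 to BCL2L1 was -1.06 ± 0.10 with celastrol and -2.02 ± 0.11 in controls (SD, n = 3 each). For these 3 ratios the groups did not overlap (two-sided exact permutation p = 0.1, adjusted to 0.133 over 4 ratios, no smaller p being possible for the unadjusted test). The ratio of BCL2 to BCL2L1 overlapped, at -5.00 ± 0.18 with celastrol and -5.31 ± 0.31 in controls (SD, n = 3 each, exact permutation p = 0.3). That difference of 0.30 was 0.12 without control replicate 3.

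BAX and BAK1, whose products open the outer mitochondrial membrane, both rose, and BOK, a related pore former, did not pass the test. BAX had 51.8, 45.8 and 50.8 FPKM in celastrol replicates 1, 2 and 3, against 39.9, 35.2 and 36.6 FPKM in control replicates 1, 2 and 3 (log2 fold change 0.37, edgeR adjusted p = 0.000793). BAK1 had 23.4, 23.4 and 24.1 FPKM in celastrol replicates 1, 2 and 3, against 16.9, 16.6 and 17.2 FPKM in control replicates 1, 2 and 3 (log2 fold change 0.44, edgeR adjusted p = 0.000138). That is 2 of 3 pore formers higher, beside 23.6% of all tested genes. No celastrol well overlapped a control well for BAX or BAK1, and 56.9% of all tested genes likewise had groups that did not overlap. The log2 ratio of the summed family to the 3 pore formers was 1.39 ± 0.08 with celastrol and 2.51 ± 0.24 in controls (SD, n = 3 each), a difference of -1.12 (two-sided exact permutation p = 0.1, the smallest possible). Every celastrol library had a lower ratio than every control library.

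Of the 8 BH3-only genes, all tested, 1 rose and 1 fell (2 rose and 1 fell when scaled by library size alone). By the same test 23.6% of all tested genes rose and 24.8% fell. BMF, a BH3-only gene released from the cytoskeleton under stress, averaged 94.22 CPM with celastrol and 58.37 CPM in controls (log2 fold change 0.69, edgeR adjusted p = 4.82e-07). BBC3, which encodes the p53 target PUMA, averaged 10.55 CPM with celastrol and 19.67 CPM in controls (log2 fold change -0.90, edgeR adjusted p = 1.72e-05). BCL2L11, which encodes BIM, stood at 21.49 CPM with celastrol and 22.42 CPM in controls. PMAIP1, which encodes NOXA, stood at 50.72 CPM with celastrol and 52.67 CPM in controls. Neither of the 2 passed the test (edgeR adjusted p = 0.656 and 0.753). The list had a median log2 fold change of 0.03. Among 5 further BCL2-like genes of less settled role, 2 were tested and BCL2L12 rose (0.30, adjusted p = 0.00723), while BCL2L10 had at most 4 counts in any library.

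**Figure D4:**
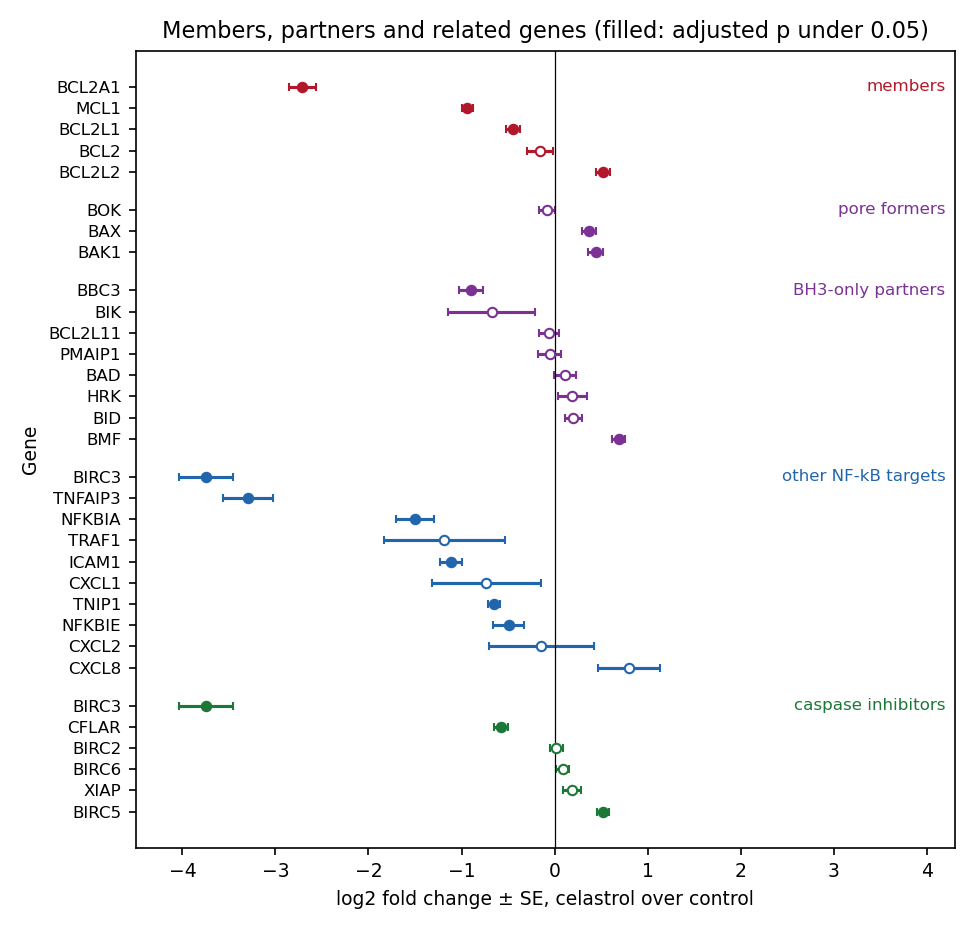
Log2 fold change with SE, celastrol over control, for the members, pore formers, BH3-only genes, other NF-kB targets and caspase inhibitors that were tested, with filled points for an adjusted p under 0.05. Members lie between -2.71 and 0.52, BAX and BAK1 lie above 0, and BIRC3, drawn in both of its lists, and TNFAIP3 lie furthest left.

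NF-kB is known to drive BCL2A1 and BCL2L1, so 12 other NF-kB targets were read beside them, of which 10 were tested, 6 fell and 0 rose (by edgeR; CXCL8, at 0.80, had an adjusted p of 0.072). Over all tested genes 24.8% were called lower and 23.6% higher. The median log2 fold change of the tested targets was -0.93. BIRC3, which encodes the ubiquitin ligase cIAP2, fell most (-3.75, adjusted p = 3.73e-08), with 18, 20 and 47 counts in celastrol replicates 1, 2 and 3 against 306, 394 and 406 in control replicates 1, 2 and 3. TNFAIP3, which encodes the feedback inhibitor A20, followed (-3.29, adjusted p = 6.53e-06). The smallest falls among those called were NFKBIE (-0.49), an inhibitor of the IkB type whose groups of wells overlapped, and TNIP1 (-0.65), a partner of A20. Among 19 transcription factors known to act on the members, 10 fell and 3 rose (4 rose with library size alone), beside 24.8% and 23.6% of all tested genes. The median of these factors was -0.27. RELB, an NF-kB subunit, had the lowest value at -1.99 (adjusted p = 8.18e-09). The highest of the 19 was SPI1 at 2.01 (adjusted p = 0.00261), though it was read at only 46 to 55 counts per celastrol library and 7 to 16 per control library. Of the other NF-kB subunits, NFKB2 (-1.72) and NFKB1 (-0.27) fell, with edgeR adjusted p of 1.47e-08 and 0.00732. RELA (0.16) and REL (-0.16) did not pass the test (adjusted p = 0.0578 and 0.404). Whether NF-kB bears on the changes of the members was not tested.

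Other inhibitors of cell death went both ways. Of 8 caspase inhibitors 6 were tested, 2 fell and 1 rose, beside 24.8% lower and 23.6% higher over all tested genes. The median log2 fold change of the 6 was 0.05. BIRC5, which encodes survivin, a mitosis-linked IAP protein, averaged 88.42 CPM with celastrol and 61.67 CPM in controls (0.52, edgeR adjusted p = 7.97e-06). CFLAR, the FLIP inhibitor of caspase-8, averaged 65.71 CPM with celastrol and 97.88 CPM in controls (-0.57, edgeR adjusted p = 6.61e-06), and BIRC3 was the other that fell. XIAP, which blocks caspases directly, did not pass the test (0.19, adjusted p = 0.114).

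Of 10 genes that act on the turnover of MCL1 protein, 2 rose and 1 fell (3 rose with library size alone). The shares over all tested genes were 23.6% higher and 24.8% lower. GSK3A, a kinase that marks MCL1 for degradation, was highest of those called (0.36, edgeR adjusted p = 0.000761), and its close relative GSK3B was lowest (-0.29, adjusted p = 0.00151). HUWE1, a ubiquitin ligase of MCL1, and USP9X, which removes its ubiquitin, did not pass the test (0.12 and -0.02, adjusted p = 0.0845 and 0.811). Of 9 genes for binding partners outside the family, 3 fell and 2 rose (2 fell and 3 rose when scaled by library size alone), beside the same shares of all tested genes. Those called ran from ITPR1 at -0.76 to ITPR2 at 0.35, both of which encode calcium channels that BCL2 proteins bind at the endoplasmic reticulum.

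AU-rich stretches in a 3′ UTR, with ATTTA as their core, are known to shorten the life of an mRNA. In the longest GENCODE 3′ UTR of each member, MCL1 holds 10 ATTTA cores in 2824 bases, BCL2 13 in 5279, BCL2L1 3 in 1497, BCL2L2 5 in 2794 and BCL2A1 0 in 267. Over 19034 genes the median is 2 cores, and 67.7% hold at least 1. Longer 3′ UTRs have room for more cores. Per kb, the median over these genes is 1.49 cores. The members hold 3.54 (MCL1), 2.46 (BCL2), 2.00 (BCL2L1), 1.79 (BCL2L2) and 0 (BCL2A1) per kb. The extended form TATTTAT is found 3 times in MCL1 and once each in BCL2L1 and BCL2, against 31.1% of genes with any. Whether these stretches bear on the changes of the members was not tested. The stretches with the most cores around such a match are shown because MCL1, BCL2L1 and BCL2 hold the extended form, with ATTTA in capitals.
MCL1, chr1:150575806-150575835, minus strand: ccctctacagatATTTAtatcaattcctac
BCL2L1, chr20:31664681-31664710, minus strand: aagcgtgtctgtATTTAtgtgtgaggagct
BCL2, chr18:63128352-63128381, minus strand: aaaaaaagATTTATTTATTTAagacagtcc
Of 7 genes for factors that bind such stretches or stabilise mRNA, 3 fell and 3 rose, beside 24.8% lower and 23.6% higher over all tested genes. ZFP36L1, which is known to destabilise AU-rich mRNAs, had 50.4, 50.3 and 44.0 FPKM in celastrol replicates 1, 2 and 3 against 112, 131 and 109 FPKM in control replicates 1, 2 and 3 (log2 fold change -1.32, edgeR adjusted p = 9.17e-10). KHSRP, another decay factor, was the highest of those that rose (0.45, adjusted p = 1.21e-05).

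The genes most like each member were found by the root mean square difference of centred log2 CPM over the 6 libraries, among 8565 named genes whose mean log2 CPM was 4 or more. This measure follows both the difference between the groups and the deviations of single wells. For BCL2A1 the 3 nearest were CCN2 (0.114), CCN1 (0.115) and CD274 (0.133). CCN2 and CCN1 encode matricellular proteins that YAP induces, and CD274 encodes PD-L1. CCN1 averaged 185.2 ± 7.85 CPM with celastrol and 1120 ± 254 CPM in controls (SD, n = 3 each). For MCL1 the nearest were the stress kinase gene STK39 (0.0272), the Notch ligand gene JAG1 (0.0375) and DTNA (0.0413), all at a log2 fold change between -0.96 and -0.90. For BCL2L1 they were AKAP8L (0.0258), ZBTB18 (0.0274) and CARM1 (0.0334), for BCL2L2 ARHGAP18 (0.0323), TNPO2 (0.0355) and MTG2 (0.0368), and for BCL2 CLCN6 (0.0597), B9D1 (0.0647) and GGPS1 (0.0686). BCL2A1 had the least close matches of the 5 members in these 6 libraries. The measure is not scaled by the size of the change, and few genes changed as much. Only 50 of the 15387 tested genes had a log2 fold change lower than that of BCL2A1.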

How the data were processed

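RNA of 6 wells of 143B cells (3 celastrol, 3 control) was read on an Illumina instrument after poly(A) selection with a strand-marking protocol, per the labels' protocols. Build hg38 and the tools HISAT2 2.2.1, cutadapt 1.9, edgeR, StringTie 2.1.6 and DESeq2 are named in the submitters' processing notes, without their roles. The deposited count table holds raw read counts per gene. The deposited FPKM values are the authors' counts scaled by gene length and library total, and in all 20198 genes checked both tables gave 1 length per gene (within 1e-06).

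Genes were filtered with filterByExpr, scaled by TMM and fitted with edgeR 4.0.16 (glmQLFit with robust dispersion, R 4.3.3) over all genes, with Benjamini-Hochberg adjustment and a threshold of 0.05. The script was tested on simulated data. SE is the absolute log2 fold change over the root of F, and 95% intervals use the same SE. Sums and ratios used FPKM, with exact permutation tests in scipy 1.17.1. A count of 0 allows up to 3 counts (0.076 to 0.0781 CPM), a limit for counting error only.

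The members and lists were chosen with earlier results of these data known. Named genes are the members, the called genes at the ends of each list, examples of BH3-only genes and pore formers that were not called (BCL2L11, PMAIP1 and BOK), and the 3 genes nearest each member in pattern. XIAP, HUWE1, USP9X, CXCL8, BCL2L10, ATF4, MITF, NFKB1, NFKB2, RELA, REL, the markers and the genes with shared exons were named after their values were seen. Coordinates are those of RefSeq on GRCh38.p14 by NCBI gene ID, promoter letters are RefSeq's, and exon overlaps and 3′ UTRs are from GENCODE 29 on GRCh38. MCL1 and BCL2L2 have no promoter letters printed. The fit was repeated with other scaling, other filters, DESeq2 1.42.0 and limma 3.58.1, with libraries left out and with a replicate block.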

Additional observations from a re-analysis of the deposited data

How the results depend on the processing

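The 3 members lower and 1 higher held in all 17 alternatives, among them library size alone, upper quartile and RLE scaling, DESeq2, limma-voom, limma on log2(FPKM + 1) or log2(FPKM + 0.1), both other filters, each left-out library and the removal of celastrol replicate 2 with control replicate 1, which was chosen after seeing the data. Log2 fold changes ranged from -2.85 to -2.47 for BCL2A1, -1.02 to -0.87 for MCL1, -0.52 to -0.40 for BCL2L1, 0.49 to 0.56 for BCL2L2 and -0.28 to -0.03 for BCL2, whose adjusted p ran from 0.133 to 0.903. With library size alone 2 BH3-only genes were higher, against 1 with TMM, genes higher went to 3 in place of 2 for MCL1 protein turnover and for partners outside the family and to 4 in place of 3 for transcription factors, and the median of all genes moved to 0.0411.

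The samples share replicate numbers but no stated pairing, and same-numbered wells correlated by 0.0582, 0.0549 and 0.0341 in their deviations from the group mean. Wells of unlike number correlated by -0.0625 to 0.00526, lower than each same-numbered value. Deviations cancel within a group, so positive same-numbered values push those of unlike number down. These values neither establish nor exclude a weak pairing. With a replicate block, 3 members were lower and 1 higher, and the family sum differed by -220.7 FPKM (exact sign-flip p = 0.25, the smallest 3 pairs allow). Leaving out single libraries gave differences in the family sum of -239.7 to -196.1 FPKM. The share of MCL1 in the sum differed by -3.38 to -1.48 percentage points with single libraries left out, the smallest without celastrol replicate 3, and by -5.53 as a share of counts rather than per length (exact permutation p = 0.1). The log2 ratio of BCL2 to BCL2L1 differed by 0.12 to 0.41 with single libraries left out, the smallest without control replicate 3. With 3 wells a group, no exact test of a sum or ratio could pass 0.05.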
